A study of Mus musculus with 24 samples.

Results

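Replication histone genes encode the linker histone H1 and the core histones H2A, H2B, H3 and H4 that package newly made DNA. The 68 protein-coding genes with a symbol of the form H1f1 to H1f6, H2ac, H2bc, H3c or H4c followed by a number were taken from the 55414 genes of the count table. They were chosen by symbol, and the group was selected on its levels in these same libraries, with H2ac10 as its marker. They comprise 6 H1, 18 H2A, 19 H2B, 12 H3 and 13 H4 genes. In GRCm39, 54 of them lie on chromosome 13, 10 on chromosome 3, 3 on chromosome 11 and 1 on chromosome 6. RNA came from splenic Tconv CD4+ cells (CD4+ CD25-, labelled TE) of conplastic mice, all with a C57BL/6J nucleus and with either the mtDNA of C57BL/6J (mtDNA B6, labelled WT) or the mtDNA of the NZB strain (mtDNA NZB, labelled NZB). They are called B6 cells and NZB cells here, after the mtDNA alone. Cells of each haplotype stayed resting (RES) or were activated (ACT) for 72 h with beads against CD3 and CD28, a stand-in for antigen and costimulation, together with IL-2, a growth factor of T cells. Each of the 4 groups held 6 libraries, 24 in all. Per the study's methods, males aged 2 to 3 months served in most experiments, but the age and sex behind these libraries are not given. Nor do the labels say whether libraries came from separate animals or cultures, so p-values measure only the spread between these libraries, which may be technical. Per the methods, isolated cells were split into resting and activated ones, so libraries of the 2 states may be paired. The main fit treats them as unpaired. Fits with label number as a block, in which fewer members rose and some calls below were lost, are given at the end.

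Most messenger RNAs end in a poly(A) tail. The mRNAs of replication histones are the best known exception in animal cells, since they normally end just after a conserved stem-loop that is bound by the stem-loop binding protein SLBP. They are made in quantity in S phase, when DNA is copied, and are degraded at its end. Some histone genes can also make longer, polyadenylated transcripts that run past the stem-loop to an ordinary poly(A) signal, a form described in resting and differentiating cells. Bulk MARS-seq primes on poly(A) and counts each captured molecule once by its unique molecular identifier (UMI), so what is measured here is the histone RNA that such priming captured and not the total of histone mRNA.

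The stem-loop can be read in the genes themselves. The letters GGNNNTTNTNANNNCC, searched on the strand of the gene within 200 bases after the stop codon, were found in 66 of the 68 genes, 21 to 58 bases after the stop, and H2ac22 and H2bc21 held no match. When only the canonical stop codon of each gene was searched, 63 of 68 members (92.6%) and 77 of 21462 other protein-coding genes (0.359%) held them. The 8 stretches of 30 bases below show this end for genes that rose, fell or, for H4c9, passed in neither direction on activation, with the stem-loop in capitals.
H2ac23: agaaaaaaaaaaaaGGCTCTTTTCAGAGCC
H2ac8: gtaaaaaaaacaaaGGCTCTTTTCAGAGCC
H3c3: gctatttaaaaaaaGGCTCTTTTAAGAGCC
H2ac11: tgatcgccaacaaaGGCTCTTTTCAGAGCC
H1f2: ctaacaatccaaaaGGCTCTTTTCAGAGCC
H2ac20: cacgaatccaaaaaGGCTCTTTTTAGAGCC
H4c3: cactgtcaacaaaaGGCCCTTTTCAGGGCC
H4c9: caatgctacttaaaGGCCCTTTTTAGGGCC
In GRCm39 these are chr13:21995054-21995083 (plus strand, H2ac23), chr13:23754842-23754871 (minus, H2ac8), chr13:23929030-23929059 (minus, H3c3), chr13:22226653-22226682 (minus, H2ac11), chr13:23923481-23923510 (plus, H1f2), chr3:96127734-96127763 (minus, H2ac20), chr13:23882072-23882101 (minus, H4c3) and chr13:22225136-22225165 (minus, H4c9). Each holds the 14 bases before the stem-loop and its 16 bases. The stem-loop itself was spelled alike in 42 genes, among them genes that rose (H2ac23) and fell (H1f2). The bases before it differed, and H2ac23 has a run of 12 A that ends at the stem-loop, shared letter for letter with its copy H2ac24.

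Of the 68 members, 62 had a count and 6 had none in any library (H1f3, H2bc1, H2bc23, H2bc24, H3c14 and H4c16). The filter on low counts, edgeR's filterByExpr, left 41, and the 21 members below it held 1 to 171 UMIs each over the 24 libraries. All members together held 41011 UMIs, of which 8433 belonged to H1f2. Library totals ran from 641467 to 6449395 UMIs in 23 libraries, while resting NZB replicate 2 held 51409, of which 52 were from members, and 1 UMI in it is worth 16.7 CPM. Libraries also differed in reads per UMI, by which they formed 3 sets. The set with the fewest reads per UMI held 5 activated and 0 resting B6 libraries, the next 1 and 4, and the last 0 and 2, so that set and activation are hard to separate in B6 cells, while each set held libraries of both states in NZB cells. Counts per 1000000 after TMM scaling (CPM) are therefore given for resting NZB cells over the other 5 libraries, and as lowest, median and highest of the libraries of a group, whereas the fits include all 24. A count is 1 molecule whatever its length, and CPM was not divided by length. Histone genes also resemble each other. In 34 of the 68, at least 50% of the 50-base pieces of the last 1000 transcript bases also occur in another gene, and 16 of the 18 H2A genes overlap an annotated gene on the other strand. The strand setting of the counting is not stated, so reads of such copies and partners cannot be assigned with certainty. Among the 6 members without a count, H3c14, H2bc23 and H2bc24 share 99.5, 91.7 and 89.0% of these pieces with other genes. H2bc1, H4c16 and H1f3 share 38.2, 24.6 and 0%. For the first 3 a count of 0 need not mean that the RNA was absent. H1f1, H1f2 and H1f5 share no such piece with any other gene.

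On activation, more replication histone genes fell than rose in poly(A) RNA in each haplotype. In B6 cells 5 of 40 members rose and 22 fell in edgeR's quasi-likelihood test (p adjusted after Benjamini and Hochberg over 10566 genes, call at 0.05), where 22.4% of all genes rose and 24.5% fell. In NZB cells 9 of 40 rose and 19 fell, beside 25.2% and 28.4% of all genes. The median log2 fold change of these 40 was -1.36 and -0.995, while that of all genes tested was -0.03 and -0.06. H2ac10, named for this group with its values known, is left out of these counts and described without a test. Without a filter, which gives 61 members, 6 rose and 28 fell in B6 cells (9.96% and 12.8% of 25030 genes) and 10 rose and 25 fell in NZB cells (10.9% and 13.7%). In RNA of whole samples, fewer cells of a type and less RNA per cell cannot be told apart. The resting and activated libraries did not overlap for 20 of the 40 members in B6 cells (31.8% of all genes) and for 8 in NZB cells (18.9%), or 17 without resting replicate 2 (28.0%). The plot of fold changes shows each member.

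**Figure D1:**
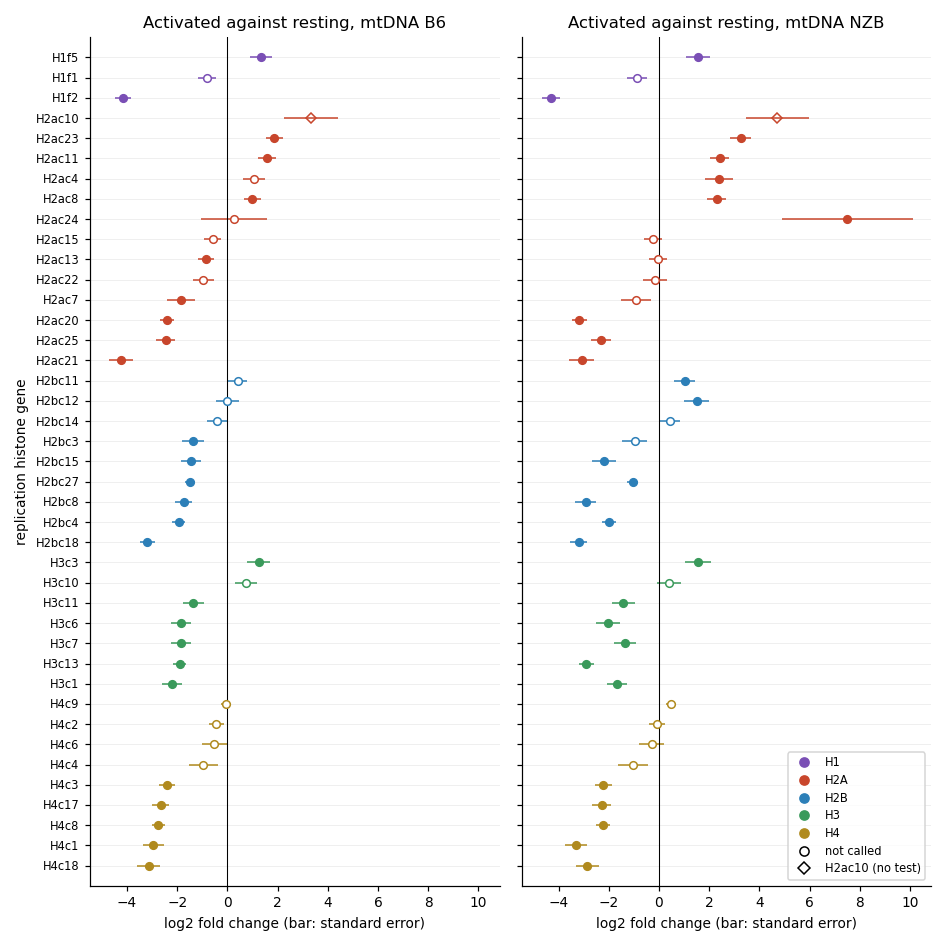
Log2 fold change of activated against resting cells for the 41 replication histone genes that passed the filter, in mtDNA B6 (left) and mtDNA NZB cells (right), with the standard error as a bar; colours mark the histone class, filled points passed an adjusted p of 0.05, open points did not, and the open diamond is H2ac10, which was not tested. H2ac23, H2ac11 and H2ac8 lie right of 0 in both panels, while H1f2 lies near -4 in both.

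Of 12 H2A genes tested, 3 rose and 5 fell in B6 cells and 5 rose and 3 fell in NZB cells, with median log2 fold changes of -0.71 and -0.09. Among all genes, 22.4% rose and 24.5% fell in B6 cells, and 25.2% and 28.4% in NZB cells. The 3 rises in B6 cells and the 3 falls in NZB cells lie near these shares. H2ac23 (ENSMUSG00000094248) went from 8.56, 12.2 and 21.3 to 29.6, 45.0 and 102 CPM in B6 cells and from 3.19, 5.65 and 16.4 to 36.0, 62.1 and 124 CPM in NZB cells. Every activated library stood above every resting library of its haplotype, also with resting NZB replicate 2 (33.5 CPM). The log2 fold change was 1.87 ± 0.35 (SE) in B6 cells and 3.25 ± 0.41 in NZB cells, with edgeR adjusted p of 8.66e-05 and 3.65e-07. H2ac11 (ENSMUSG00000069301) went from 2.01, 5.13 and 7.05 to 8.87, 15.3 and 21.9 CPM in B6 cells (log2 fold change 1.58 ± 0.35, edgeR adjusted p = 0.000573) and from 0.912, 4.68 and 5.58 to 9.48, 22.2 and 38.6 CPM in NZB cells (2.42 ± 0.39, adjusted p = 1.30e-05). Its resting and activated libraries did not overlap in either haplotype.

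H2ac8 (ENSMUSG00000069272) went from 17.4, 32.8 and 37.9 to 35.7, 64.7 and 74.9 CPM in B6 cells, where the groups overlapped slightly. In NZB cells it went from 7.30, 15.0 and 25.1 to 25.7, 94.8 and 124 CPM, and activated replicates 3 and 6 stood near the highest resting library while the other 4 stood far above it. Its log2 fold change was 0.998 ± 0.33 (edgeR adjusted p = 0.0142) and 2.30 ± 0.37 (adjusted p = 1.38e-05). In B6 cells the call was lost in the deposited table of larger counts (0.89, adjusted p = 0.0647). H2ac4 rose in NZB cells, from 0.668, 0.912 and 6.78 to 5.54, 11.6 and 24.3 CPM (log2 fold change 2.40 ± 0.54, edgeR adjusted p = 0.000624), with overlapping groups. In B6 cells it went from 0.988, 4.82 and 7.85 to 4.05, 9.30 and 18.3 CPM and missed the threshold (1.06 ± 0.44, adjusted p = 0.0526). It passed there in 5 of the other settings, with library set as a term at 1.63 (adjusted p = 0.0206), and when any 1 of 9 libraries was left out, 6 of them NZB libraries (activated replicate 1 or 6, resting replicate 3, 4, 5 or 6) and 3 of them B6 libraries (activated replicate 1, resting replicate 5 or 6), at 1.06 to 1.26.

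Other H2A genes fell, so the class did not move as one. H2ac20, on chromosome 3, went from 16.2, 19.1 and 26.5 to 1.97, 3.69 and 6.31 CPM in B6 cells (log2 fold change -2.40 ± 0.26, edgeR adjusted p = 6.83e-08). In NZB cells it went from 14.6, 21.9 and 27.7 to 0.875, 2.69 and 7.15 CPM (-3.17 ± 0.30, adjusted p = 5.53e-09). The activated libraries lay below all resting libraries in both haplotypes. H2ac21, its neighbour on chromosome 3, and H2ac25 on chromosome 11 had group means under 5 CPM and fell too, at -4.25 and -2.46 on the log2 scale in B6 cells and -3.08 and -2.30 in NZB cells.

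H2ac7 and H2ac13 passed the test in B6 cells alone, and the difference between the haplotypes did not pass for either (edgeR adjusted p = 0.640 and 0.438). H2ac7 went from 1.98, 3.83 and 5.98 to 0, 1.05 and 1.78 CPM in B6 cells (-1.83 ± 0.55, adjusted p = 0.00851) and from 2.00, 2.33 and 3.59 to 0, 1.49 and 3.04 CPM in NZB cells (-0.91 ± 0.60, adjusted p = 0.202). Its B6 call was lost with DESeq2 (-1.87, adjusted p = 0.0603) and in the table of larger counts (-1.74, adjusted p = 0.0617), and with library set as a term (-1.52, adjusted p = 0.112). In the table of larger counts the NZB fall was called (-2.13, adjusted p = 0.0262). H2ac13 went from 7.24, 9.04 and 16.1 to 3.55, 5.73 and 9.87 CPM (-0.84 ± 0.32, edgeR adjusted p = 0.0326) and from 4.11, 8.02 and 10.6 to 4.38, 6.51 and 20.03 CPM (-0.04 ± 0.34, adjusted p = 0.946), with overlapping groups. Its call was lost when any 1 of 5 B6 libraries was left out (activated replicate 1, 4 or 5, or resting replicate 4 or 6), at -0.79 to -0.65, and with DESeq2 (-0.84, adjusted p = 0.0807) or library set as a term (-0.91, adjusted p = 0.0966). H2ac15 and H2ac22 passed in neither haplotype. H2ac15 went from 3.62, 11.8 and 18.7 to 3.55, 6.67 and 13.3 CPM and from 8.21, 11.4 and 14.4 to 3.94, 11.0 and 15.7 CPM in the respective haplotypes (-0.58 ± 0.33 and -0.23 ± 0.36), and without resting B6 replicate 2 its fall there was called (-0.76, adjusted p = 0.0481). H2ac22 went from 2.63, 7.74 and 13.5 to 2.44, 3.03 and 6.33 CPM and from 3.19, 5.57 and 9.97 to 1.46, 6.77 and 11.4 CPM (-0.96 ± 0.43 and -0.15 ± 0.47), and its B6 fall was called without activated NZB replicate 6, activated B6 replicate 4, or resting B6 replicate 2 or 3 (-1.16 to -0.96), without resting NZB replicates 2 and 6 and activated NZB replicate 6 together (-0.95) and in a fit of only the 12 B6 libraries (-0.96). H2ac12 and H2ac13 share at least 80% of their 50-base pieces with H2ac7, and H2ac22 with H2ac12, while H2ac7 shares 59.5% of its own with H2ac12. The sum of these 4 genes fell in B6 cells (-0.99 ± 0.30, edgeR adjusted p = 0.00874) and was at -0.16 ± 0.32 in NZB cells.

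**Figure D2:**
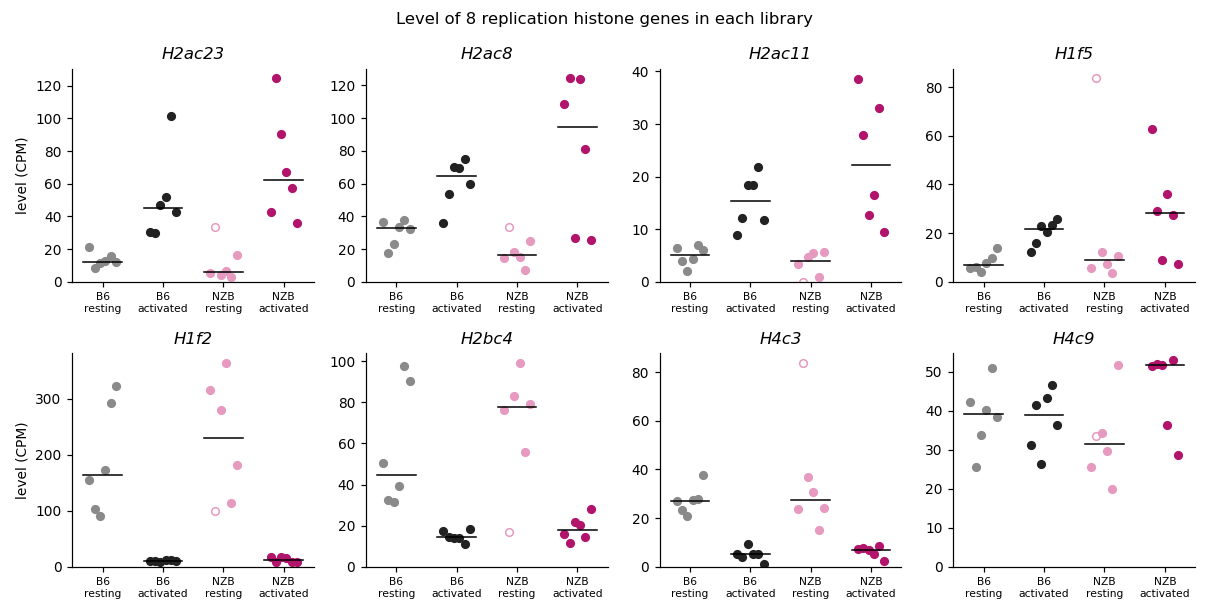
Level of 8 replication histone genes (CPM, axis from 0) in each library. Columns are resting and activated cells with B6 or NZB mtDNA, points are libraries, black lines are group medians over 6 libraries, and the open point is resting NZB replicate 2, where 1 UMI is worth 16.7 CPM. H2ac23 and H2ac11 sit higher in every activated library than in the resting libraries of their haplotype, H1f2 falls from 90.6 CPM or more to at most 17.6 CPM, and H4c9 overlaps across groups.

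A pair of H2A genes reached high levels in single libraries. H2ac10 (ENSMUSG00000061991) ran at 0.988, 1.91 and 2.64 CPM in resting and 3.29, 5.64 and 89.3 CPM in activated B6 cells. In NZB cells it ran at 0.456, 1.00 and 1.99 CPM at rest (replicate 2 held no UMI) and 1.90, 4.94 and 162 CPM after activation. The top value of each activated group was replicate 2, with 293 UMIs in B6 and 499 in NZB cells, whereas no other library held more than 32. Without that library, activated B6 cells ran from 3.29 to 8.15 CPM, still above all resting ones, and activated NZB cells from 1.90 to 7.15 CPM, which touched the resting range. The fitted log2 fold change was 3.34 in B6 and 4.71 in NZB cells, and 1.52 and 1.74 without the respective library. Of the 50-base pieces of H2ac10, 94.0% occur in other genes and 79.7% in H2ac7, which held at most 3.04 CPM in any activated library.

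H2ac24 (ENSMUSG00000094777) was present in some libraries and nearly absent from the rest. It held 181, 50 and 40 UMIs in resting B6 replicates 1, 3 and 4, 243 in activated B6 replicate 6, and 101 and 257 in activated NZB replicates 1 and 3. The other libraries held 0 to 9 each. In CPM the 6 high libraries ran from 15.6 to 145, and resting NZB cells held 2 UMIs in all, in replicate 3. The test called it higher in activated NZB cells (edgeR adjusted p = 0.0170), which rests on those 2 activated libraries, since the others held 1 UMI together, and the adjusted p was 0.0405 without replicate 1 and 0.0473 without replicate 3. Its fitted fold change depends on the prior count and is not given. It did not pass in B6 cells (log2 fold change 0.26 ± 1.32, adjusted p = 0.889). H2ac24 shares 93.1% of its 50-base pieces with H2ac23. Summed, both genes went from 8.56, 22.1 and 66.2 to 29.9, 50.7 and 139 CPM in B6 cells, where the ranges overlapped, and from 3.19, 5.65 and 16.4 to 36.0, 95.8 and 187 CPM in NZB cells, where they did not. The sum rose by 1.32 ± 0.47 on the log2 scale (edgeR adjusted p = 0.0232) and by 3.801 ± 0.59 (adjusted p = 7.11e-06).

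**Figure D3:**
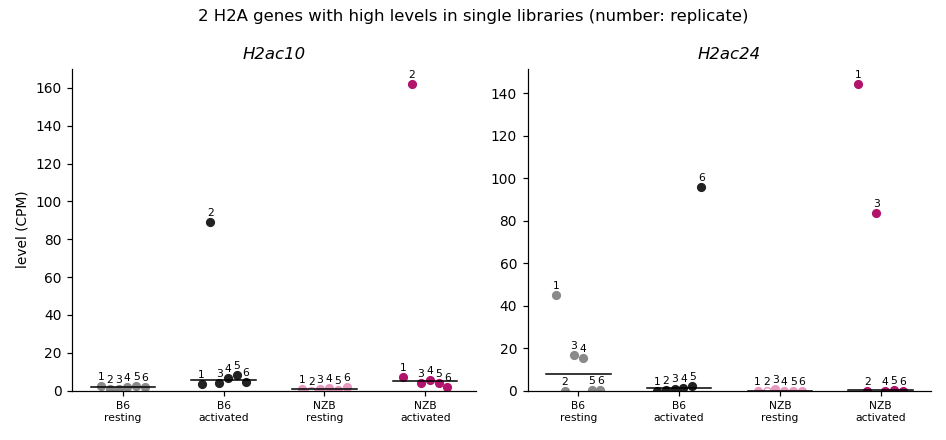
Level (CPM, axis from 0) of H2ac10 (left) and H2ac24 (right) in each of the 24 libraries, in resting and activated cells with B6 or NZB mtDNA; numbers give the replicate and black lines the group median. Replicate 2 of both activated groups stands at 89.3 and 162 CPM for H2ac10, and 6 libraries from 3 groups stand at 15.6 CPM or more for H2ac24.

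Of the linker histones, which bind the DNA between nucleosomes, H1f2 (ENSMUSG00000036181, chr13:23922791-23924350) held more UMIs than any other member and fell. It went from 90.6, 164 and 323 to 8.55, 10.6 and 11.7 CPM in B6 cells and from 114, 279 and 364 to 8.12, 12.6 and 17.6 CPM in NZB cells. No activated library came near a resting one, and resting libraries spread over a wide range while activated ones lay close together. The log2 fold change was -4.16 ± 0.34 in B6 and -4.31 ± 0.35 in NZB cells (edgeR adjusted p of 3.46e-10 and 3.32e-10). Its annotated transcript runs 840 bases past the stem-loop and ends at a poly(A) signal. H1f5 (ENSMUSG00000058773), whose annotated transcript does not reach its stem-loop, moved the other way. It went from 4.03, 6.86 and 13.8 to 12.4, 21.8 and 25.6 CPM in B6 cells (log2 fold change 1.34 ± 0.43, edgeR adjusted p = 0.0124) and from 3.65, 7.52 and 12.4 to 7.15, 28.4 and 62.9 CPM in NZB cells (1.55 ± 0.47, adjusted p = 0.00743). The ranges overlapped in both, and in NZB cells the call was lost in the table of larger counts (1.27, adjusted p = 0.0737). H1f1 passed in neither haplotype. It went from 7.24, 13.9 and 22.1 to 4.26, 9.20 and 10.9 CPM (-0.81 ± 0.36, edgeR adjusted p = 0.0644) and from 5.47, 9.19 and 18.7 to 2.92, 6.18 and 14.3 CPM (-0.86 ± 0.40, adjusted p = 0.0728). Its B6 fall was called without resting replicate 2 (-0.94, adjusted p = 0.0359), in the table of larger counts (-0.99, adjusted p = 0.0379), in a fit of only the 12 B6 libraries (-0.82, adjusted p = 0.0175) and without the same 3 NZB libraries (-0.81, adjusted p = 0.0381), or, in NZB cells, without activated replicate 1 or 5 or resting replicate 5 (-1.15 to -1.005).

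Among the 9 H2B genes tested, 6 fell and none rose in B6 cells, and 5 fell and 2 rose in NZB cells. The shares of all genes that fell and rose were 24.5% and 22.4% in B6 cells and 28.4% and 25.2% in NZB cells. H2bc4 (ENSMUSG00000018102) went from 31.6, 44.8 and 97.9 to 11.2, 14.4 and 18.5 CPM in B6 cells (log2 fold change -1.95 ± 0.27, edgeR adjusted p = 2.34e-06) and from 55.6, 79.4 and 99.4 to 11.7, 18.1 and 27.9 CPM in NZB cells (-1.999 ± 0.28, adjusted p = 1.65e-06). Leaving aside resting NZB replicate 2, no activated library reached the resting range. All 5 of its annotated transcripts run past the stem-loop, by up to 9518 bases, and 4 of them end at a poly(A) signal. H2bc18, on chromosome 3, went from 7.22, 8.48 and 12.4 to 0.329, 1.00 and 1.52 CPM and from 7.75, 9.63 and 11.2 to 0.434, 0.813 and 2.86 CPM (-3.18 ± 0.31 and -3.20 ± 0.34), again without overlap. H2bc27, on chromosome 11, went from 16.5, 17.0 and 21.7 to 4.22, 7.11 and 8.22 CPM and from 9.12, 16.4 and 21.4 to 5.69, 8.30 and 10.8 CPM (-1.49 ± 0.21 and -1.04 ± 0.22), and its groups overlapped in NZB cells alone.

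H2bc8 and H2bc15 fell in both haplotypes. H2bc8 went from 6.45, 9.54 and 14.0 to 1.01, 2.92 and 4.22 CPM and from 6.39, 10.4 and 13.9 to 0.292, 1.63 and 2.86 CPM (-1.74 ± 0.34 and -2.92 ± 0.41), and H2bc15 went from 1.98, 3.26 and 7.57 to 1.01, 1.40 and 2.11 CPM and from 3.06, 3.59 and 8.69 to 0, 0.814 and 2.17 CPM (-1.46 ± 0.41 and -2.19 ± 0.48). H2bc3, with group means under 5 CPM, fell in B6 cells (-1.36 ± 0.44, edgeR adjusted p = 0.0136), a call lost without resting replicate 5 (-1.06, adjusted p = 0.0648) and with library set as a term (-0.81, adjusted p = 0.290). In NZB cells it was at -0.96 ± 0.50 (adjusted p = 0.111), called without activated replicate 2 (-1.29, adjusted p = 0.0493). The H2B genes that rose in NZB cells were H2bc11, the neighbour of H2ac11, and H2bc12. H2bc11 went from 3.19, 6.96 and 16.8 to 6.71, 22.1 and 28.6 CPM there (1.04 ± 0.42, edgeR adjusted p = 0.0401) and from 4.03, 8.38 and 18.7 to 8.28, 12.1 and 19.4 CPM in B6 cells (0.41 ± 0.39), with overlapping groups. Its call was lost without any 1 of 6 NZB libraries (activated replicate 1, 2 or 5, or resting replicate 1, 4 or 5), at 0.84 to 0.94, with DESeq2 (1.05, adjusted p = 0.0687), in the table of larger counts (0.995, adjusted p = 0.0897) and in a fit of only the 12 NZB libraries (1.05, adjusted p = 0.0542). H2bc12 went from 0.456, 1.67 and 3.59 to 2.63, 4.88 and 11.1 CPM in NZB cells (1.50 ± 0.51, adjusted p = 0.0165), lost without activated replicate 5 (1.19, adjusted p = 0.0630) and in the table of larger counts (1.396, adjusted p = 0.0555), and from 0.389, 4.31 and 6.73 to 2.03, 4.30 and 5.86 CPM in B6 cells (0.00 ± 0.47). H2bc14 passed in neither haplotype (-0.41 and 0.44).

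Of 7 H3 genes, 5 fell and 1 rose in each haplotype, where 24.5% of all genes fell and 22.4% rose in B6 cells and 28.4% and 25.2% in NZB cells. H3c1 (ENSMUSG00000069265) went from 14.1, 15.6 and 27.3 to 1.01, 4.30 and 5.07 CPM in B6 cells (log2 fold change -2.21 ± 0.39, edgeR adjusted p = 5.64e-05) and from 9.12, 17.3 and 22.4 to 0, 3.96 and 11.7 CPM in NZB cells (-1.67 ± 0.41, adjusted p = 0.00117). The groups did not overlap in B6 cells and did in NZB cells. H3c13, on chromosome 3, fell without overlap in either, from 5.64, 6.19 and 9.72 to 0.914, 1.71 and 2.63 CPM (-1.90 ± 0.26) and from 5.93, 9.57 and 10.7 to 0.867, 1.11 and 2.86 CPM (-2.89 ± 0.29). H3c6 went from 6.70, 7.35 and 15.1 to 1.22, 2.35 and 3.95 CPM (-1.83 ± 0.40) and from 2.28, 5.98 and 12.8 to 0.292, 1.63 and 3.39 CPM (-2.02 ± 0.48). H3c7 went from 2.34, 5.41 and 5.98 to 0.633, 1.42 and 2.29 CPM (-1.85 ± 0.40) and from 1.66, 4.68 and 7.58 to 0.292, 1.90 and 2.47 CPM (-1.36 ± 0.44). The less abundant H3c11 fell as well (-1.36 and -1.42). With resting NZB replicates 2 and 6 and activated NZB replicate 6 left out together, H3c7 and H3c11 no longer passed in NZB cells (-0.70 and -1.12, edgeR adjusted p = 0.141 and 0.0825).

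H3c3 (ENSMUSG00000069310) was the H3 gene that rose. It went from 1.65, 3.84 and 7.85 to 4.56, 11.9 and 13.8 CPM in B6 cells (1.24 ± 0.46, edgeR adjusted p = 0.0275) and from 0.996, 2.50 and 11.2 to 4.09, 11.9 and 21.3 CPM in NZB cells (1.56 ± 0.51, adjusted p = 0.0118). Its groups overlapped in both. The B6 call was lost without any 1 of 5 libraries (activated replicate 4 or 5, or resting replicate 2, 3 or 4), at 1.08 to 1.16, with DESeq2 (1.26, adjusted p = 0.0648) and with library set as a term (1.47, adjusted p = 0.0522), and both calls were lost in the table of larger counts (1.12 and 1.24, adjusted p = 0.106 and 0.0893). H3c10 passed in neither haplotype (0.75 and 0.40).

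Of 9 H4 genes, 5 fell in both haplotypes and none rose, where 24.5% of all genes fell and 22.4% rose in B6 cells and 28.4% and 25.2% in NZB cells. H4c3 (ENSMUSG00000060678) went from 20.8, 27.1 and 37.8 to 1.18, 5.08 and 9.54 CPM in B6 cells (log2 fold change -2.42 ± 0.32, edgeR adjusted p = 9.12e-07) and from 15.1, 24.3 and 37.1 to 2.19, 7.00 and 8.33 CPM in NZB cells (-2.21 ± 0.34, adjusted p = 5.40e-06), without overlap. H4c1 went from 6.91, 7.70 and 10.1 to 0.305, 0.901 and 1.90 CPM (-2.95 ± 0.41) and from 5.02, 8.91 and 13.6 to 0, 0.651 and 2.78 CPM (-3.30 ± 0.45). H4c8 went from 8.43, 12.3 and 15.2 to 1.01, 1.81 and 2.29 CPM (-2.76 ± 0.26) and from 8.38, 9.58 and 14.0 to 1.31, 2.37 and 3.90 CPM (-2.21 ± 0.28). H4c17 went from 6.04, 8.06 and 11.2 to 0, 1.50 and 1.65 CPM (-2.66 ± 0.34) and from 3.65, 6.40 and 9.02 to 0.730, 1.20 and 2.47 CPM (-2.28 ± 0.37), and its less abundant near copy H4c18 fell at -3.13 and -2.85. Summed, H4c17 and H4c18 fell at -2.83 ± 0.30 and -2.48 ± 0.32. The activated libraries of these 5 genes lay below the resting ones in both haplotypes, except where resting NZB replicate 2 held no UMI.

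H4c9 (ENSMUSG00000060639) went from 25.7, 39.3 and 51.1 to 26.3, 38.9 and 46.6 CPM in B6 cells, at a log2 fold change of -0.05 ± 0.20 with a 95% interval from -0.43 to 0.34. In NZB cells it went from 20.1, 29.8 and 51.9 to 28.7, 51.6 and 53.1 CPM (0.48 ± 0.21, edgeR adjusted p = 0.0619), and a rise was called there without activated replicate 4 or 6 or resting replicate 6 (0.53 to 0.70). With activated replicate 6 and resting replicates 2 and 6 all left out, the rise was 0.82 (edgeR adjusted p = 0.00130), and with library set as a term it was 0.56 (adjusted p = 0.0333). Activated replicate 6 held the lowest activated and resting replicate 6 the highest resting value of H4c9 in NZB cells. H4c2 and H4c6 passed in neither haplotype. H4c2 went from 4.61, 9.14 and 12.8 to 5.57, 6.86 and 8.23 CPM (-0.43 ± 0.29) and from 4.11, 9.36 and 15.9 to 4.96, 9.74 and 14.3 CPM (-0.08 ± 0.30), and H4c6 went from 1.01, 1.96 and 4.49 to 0.914, 1.74 and 2.37 CPM (-0.51 ± 0.51) and from 1.39, 2.28 and 11.2 to 1.31, 2.72 and 4.89 CPM (-0.29 ± 0.50). H4c4 went from 3.95, 8.94 and 16.4 to 2.79, 5.09 and 6.12 CPM (-0.96 ± 0.58, edgeR adjusted p = 0.176, called at 0.0113 in a fit of only the 12 B6 libraries) and from 10.6, 16.0 and 24.3 to 1.60, 6.46 and 52.9 CPM (-1.03 ± 0.61, adjusted p = 0.156). In NZB cells activated replicate 1 held 52.9 CPM against 1.60 to 8.45 CPM in the others, and without it the fall was called (-1.91, adjusted p = 0.00177).

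Summed by class, H2A genes took a larger share of the member CPM in every activated library than in any resting one. All 68 genes together gave 661 ± 193 CPM (SD, n = 6) in resting and 383 ± 78.9 CPM in activated B6 cells, and 687 ± 180 CPM (n = 5) in resting and 527 ± 204 CPM (n = 6) in activated NZB cells, with overlapping ranges in both haplotypes. Without H1f2 the sums were 471 ± 99.7 and 372 ± 78.7 CPM and 436 ± 120 and 514 ± 203 CPM, and the lower activated mean in NZB cells was then the higher one. The NZB ranges overlapped (264 to 575 CPM at rest and 208 to 748 CPM activated). That activated mean includes single-library values of H2ac10 (162 CPM in replicate 2) and H2ac24 (144.5 and 83.75 CPM in replicates 1 and 3), so no rise is drawn from it. The H2A sum itself went from 81.3, 142 and 183 to 99.3, 207 and 261 CPM in B6 cells and from 52.9, 98.0 and 129 to 94.7, 255 and 493 CPM in NZB cells, with overlapping ranges in both. Without H2ac10 and H2ac24 it went from 80.3, 131 and 152 to 96.0, 161 and 251 CPM and from 52.5, 96.6 and 127 to 92.8, 242 and 331 CPM, also overlapping, so the share moved with the lower sums of the other classes as well. The H1 sum went from 107, 187 and 360 to 28.6, 42.5 and 46.1 CPM in B6 cells and from 124, 312 and 383 to 19.3, 45.2 and 94.4 CPM in NZB cells. The H2B sum went from 89.6, 119 and 191 to 44.9, 53.8 and 57.6 CPM and from 97.2, 159 and 170 to 49.3, 71.4 and 83.0 CPM. Neither of these overlapped in either haplotype. The H3 sum went from 45.8, 51.1 and 75.9 to 15.5, 29.35 and 36.2 CPM and from 26.0, 50.1 and 80.2 to 11.96, 30.3 and 53.1 CPM, and the H4 sum from 101, 129 and 148 to 51.7, 59.8 and 73.6 CPM and from 77.1, 125.5 and 178 to 42.2, 87.15 and 134.5 CPM. Both were free of overlap in B6 cells and overlapped in NZB cells. H2A genes made up 16.5, 20.5 and 28.2% of the member CPM in resting and 41.4, 52.2 and 58.5% in activated B6 cells, and 11.2, 13.2 and 17.1% and 43.6, 54.8 and 66.6% in NZB cells. With H2ac10 and H2ac24 left out the share still went from at most 22.6% to at least 40.6% and from at most 16.9% to at least 43.1%. No test was run on these sums, since the members were chosen with results known.

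**Figure D4:**
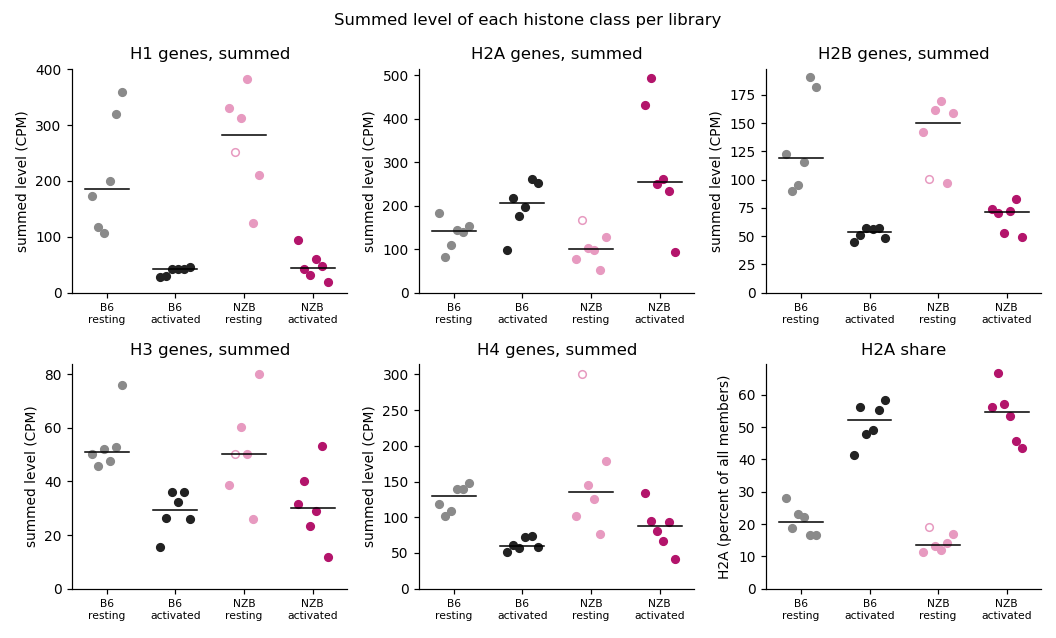
Summed level (CPM, axis from 0) of the H1, H2A, H2B, H3 and H4 genes in each library, and the H2A sum as a percent of all 68 genes (last panel); columns are resting and activated cells with B6 or NZB mtDNA, black lines are group medians over 6 libraries and the open point is resting NZB replicate 2. The H2A share lies at or below 28.2% in every resting library and at or above 41.4% in every activated one.

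Sequence features that the choice of genes did not use were set beside the direction of change, after the values had been seen and so without a test. Within 60 bases after the stop codon, a run of 6 or more A occurs in 5 of the 68 members (7.35%) and in 691 of 21462 other protein-coding genes (3.22%). All 5 were tested. H2ac23 and H2ac24, near copies that are not separate instances, have 12, H2ac8 has 8, H3c3 has 7 and H2ac22, which holds no match to all the stem-loop letters, has 6. The run of H2ac22 is followed by caaaggctcttt, and ggctcttt also begins the stem-loop of H2ac8. Of the 9 members that rose in at least 1 haplotype, 4 are among these 5, and the fifth, H2ac22, passed in neither. H2ac22 lay at -0.96 in B6 cells (edgeR adjusted p = 0.0675), and its fall there was called in several alternative fits. The rise of H2ac24 rests on activated NZB replicates 1 and 3, and both calls of H3c3 were lost in the table of larger counts. None of the 22 members that fell in at least 1 haplotype in the fit of all 24 libraries has such a run, the longest run among them being 5 A. The runs of H2ac23, H2ac24 and H3c3 end where the stem-loop begins, and that of H2ac8 ends shortly before it, as printed above. H1f5, H2ac4, H2ac11, H2bc11 and H2bc12 rose in at least 1 haplotype without one. Annotated transcripts that run at least 100 bases past the stem-loop and end at a poly(A) signal (AATAAA or ATTAAA in the last 50 bases, present at the end of the canonical transcript in 17 members, 25.0%, and in 71.1% of other genes) belong to 18 of the 68 members. They belong to 6 of the 22 that fell (H1f2, H2bc4, H2bc27, H2bc3, H4c1 and H2ac25), to 1 of the 9 that rose (H2ac8) and to 1 of the 9 that passed in neither (H4c9). A match of letters is a description of the window and not a site of priming or cleavage, and its part in the change was not tested.

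**Figure D5:**
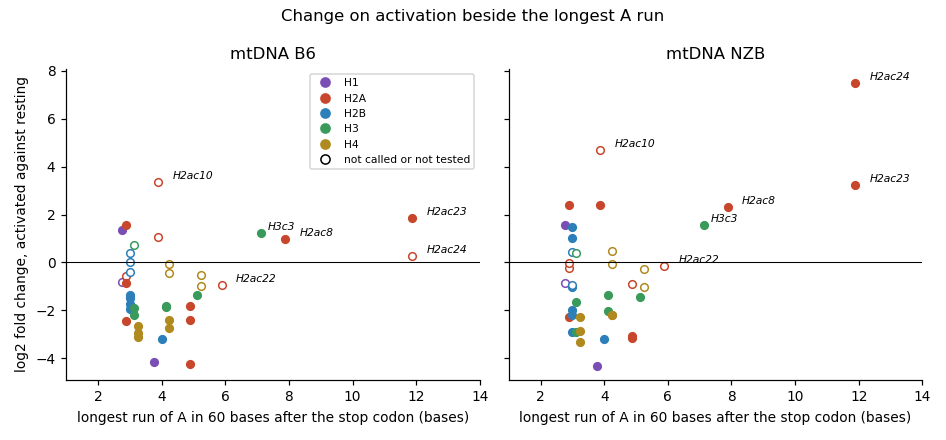
Log2 fold change on activation against the longest run of A (bases) within 60 bases after the stop codon, for the 41 members that passed the filter, in mtDNA B6 (left) and mtDNA NZB cells (right); points are shifted slightly sideways by class, filled points passed the test and open points did not or, for H2ac10, were not tested. The members with runs of 7 or more A (H3c3, H2ac8, H2ac23 and H2ac24) lie above 0. H2ac22, with a run of 6, lies below 0, and members on both sides of 0 have runs of 3 to 5.

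Between the haplotypes, no member passed the test in either state. In resting cells 0 of 40 members were called by edgeR as higher or lower in NZB than in B6 cells, where 1.9% of all genes were higher and 0.861% lower. At an unadjusted p under 0.05 there were 3 of 40, beside 20.8% of all genes (H2ac8 at -0.90 ± 0.37, H2ac23 at -0.91 ± 0.42 and H2ac24, all lower), and DESeq2 called 0. Among activated cells edgeR called 0 members and 0.0% of all genes in either direction. At an unadjusted p under 0.05 there were 2 of 40, beside 3.09% of all genes (H2bc8 at -1.13 ± 0.44 and H2bc14 at 0.83 ± 0.39), and DESeq2 called 0. The difference between the responses to activation gave 0 members and 0.0% of all genes by edgeR, 6 of 40 members at an unadjusted p under 0.05 (14.3% of all genes) and 0 by DESeq2, so the members' count lay near that of all genes. Besides H2ac24 these were H2bc12 (1.50 ± 0.68), H2ac23 (1.38 ± 0.53), H2ac8 (1.30 ± 0.49), H2bc8 (-1.18 ± 0.54) and H3c13 (-0.99 ± 0.40). The median log2 difference of the 40 members was -0.08 at rest, 0.29 in activated cells and 0.35 between the responses. For all genes it was -0.01, 0.01 and 0.02. By class, the median between the responses was -0.05 (H1), 0.87 (H2A), 0.40 (H2B), -0.06 (H3) and 0.29 (H4). The members were measured in the same libraries, and no test was run on these medians. The 95% interval of the difference, not adjusted for the number of genes, ran from 0.34 to 2.26 for H2ac8 and from -1.05 to 0.75 for H1f2. With resting NZB replicates 2 and 6 and activated NZB replicate 6 left out together, H2ac23 and H2ac4 were lower in resting NZB than B6 cells (-1.46 and -1.97, edgeR adjusted p = 0.0400 and 0.0489, where 2.24% of all genes were higher and 3.88% lower). The response of H2ac23 was then larger in NZB cells (2.08, edgeR adjusted p = 0.0483, where 0.878% of all genes had a larger and 0.166% a smaller response). The libraries left out held the highest resting values (33.5 and 16.4 CPM) and the lowest activated value (36.0 CPM) of H2ac23 in NZB cells. Resting replicate 6 also held the highest resting value of H2ac4 there (6.78 CPM). Leaving them out thus moves these values in the direction called, and no haplotype difference is drawn from them.

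The genes that replace, process and carry histones were described by lists. Their counts are to be read beside those of all genes tested. Of these, 22.4% rose and 24.5% fell in B6 cells, and 25.2% rose and 28.4% fell in NZB cells. Of 10 replacement variant genes tested, most of which make polyadenylated mRNA outside S phase too, 5 rose and 2 fell in B6 cells and 6 rose and 1 fell in NZB cells, with medians of 0.25 and 0.59 on the log2 scale. H2ax, the H2A variant phosphorylated at DNA breaks, went from 97.5, 127 and 164 to 215, 315 and 357 CPM and from 85.0, 110.4 and 152 to 197, 388 and 450.2 CPM, a rise of 1.25 ± 0.18 and 1.72 ± 0.19. H2az1 and H2az2, which encode H2A.Z, rose (0.84 and 1.27 in B6, 1.08 and 1.38 in NZB cells), as did Cenpa, the centromeric H3 (1.39 and 1.43). H3f3b, which encodes H3.3, fell from 652, 771 and 922 to 287, 333 and 371 CPM and from 827, 948 and 1045 to 290.5, 375 and 409 CPM (-1.24 ± 0.11 and -1.32 ± 0.11). H3f3a, which encodes the same protein, fell in B6 cells (-0.35, edgeR adjusted p = 0.0363) and was at -0.23 in NZB cells (adjusted p = 0.158). H1f0, a replacement linker histone, was at 0.20 in B6 cells (adjusted p = 0.482) and rose in NZB cells (0.60, adjusted p = 0.0433).

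Of 28 genes of histone mRNA transcription and 3′ processing, 8 rose and 3 fell in B6 cells and 10 rose and 3 fell in NZB cells. For this and the next lists, the shares of all genes were 22.4% and 24.5% in B6 cells. In NZB cells they were 25.2% and 28.4%. Slbp went from 4.03, 8.34 and 10.1 to 10.9, 15.5 and 17.6 CPM in B6 cells (0.89 ± 0.29, edgeR adjusted p = 0.0142) and from 5.01, 9.36 and 21.9 to 10.4, 15.2 and 24.7 CPM in NZB cells (0.34 ± 0.31, adjusted p = 0.363). Npat, the coactivator of histone genes, was at 0.82 ± 0.37 (adjusted p = 0.0727) and 0.19 ± 0.40 (adjusted p = 0.712). Zfp473, a component of the processing complex, and Ncbp2, a cap-binding subunit, rose in both haplotypes (1.97 and 0.91, 1.65 and 1.36). Of 25 histone chaperone and deposition genes, 16 rose and 2 fell in B6 cells and 17 rose and 1 fell in NZB cells. Asf1b, an H3 and H4 chaperone, went from 13.2, 27.1 and 34.7 to 88.9, 137 and 167 CPM and from 9.12, 15.0 and 33.5 to 94.7, 149 and 212 CPM (2.29 and 3.07). Chaf1a, a subunit of chromatin assembly factor 1, rose at 1.77 and 1.43, and Ube2t, a ubiquitin-conjugating enzyme of DNA repair, at 1.11 and 1.36. Nasp, a histone chaperone, rose in B6 cells (0.83, adjusted p = 0.0102) and was at 0.32 in NZB cells (adjusted p = 0.318). Of 30 S phase and proliferation genes tested, 29 and 27 rose and none fell, with median log2 fold changes of 1.37 and 1.98. Top2a, the topoisomerase of dividing cells, went from 55.0, 97.9 and 145 to 409.5, 616 and 709 CPM and from 37.9, 49.8 and 124 to 384, 655 and 856 CPM (2.63 and 3.31), and Mki67, a marker of cycling cells, from 23.2, 42.8 and 57.8 to 116, 138 and 193 CPM and from 6.39, 15.9 and 65.4 to 69.7, 145 and 188 CPM (1.89 and 2.41). Ccna2, cyclin A2, rose at 2.49 and 3.27. Between the haplotypes no gene of these 4 lists was called in either state.

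Markers of the labelled cells were present, and markers of granulocyte precursor, erythroid and myeloid cells moved with the falls. The 9 T cell genes summed to 4375 to 6497 CPM in resting and 5256 to 6008 CPM in activated B6 cells and to 3713 to 6805 and 5106 to 6938 CPM in NZB cells, and 2 of them rose (Cd3d and Thy1) and 2 fell in each haplotype, Cd5 among them (-0.65 and -0.58). Of 11 T cell activation genes, 5 rose and 3 fell in B6 and 4 rose and 2 fell in NZB cells, with Il2ra at 4.68 and 5.00, Tnfrsf9 at 2.32 and 1.80 and the early marker Cd69 at -3.73 and -3.62. All 8 granulocyte precursor genes tested fell in each haplotype, with Camp at -8.42 and -6.55, Ltf at -8.03 and -6.70 and Lcn2 at -7.72 and -6.43. Their sum ran from 443 to 5374 CPM in resting and 12.7 to 84.9 CPM in activated B6 cells, and from 315 to 11370 and 7.41 to 102 CPM in NZB cells. Of 13 erythroid genes 11 fell in each haplotype, with Slc4a1 at -7.91 and -6.43, Alas2 at -6.19 and -6.09 and Hba-a1 at -6.11 and -7.81. Their sum ran from 918 to 8170 and 42.4 to 370 CPM, and from 330 to 4698 and 38.0 to 100.4 CPM. All 7 myeloid genes tested fell, with Csf1r at -6.35 and -5.59, Lyz2 at -6.29 and -5.12, Cd14 at -3.96 and -6.02 and sums of 850 to 2773 and 25.3 to 90.2 CPM, and of 477 to 3060 and 12.7 to 117 CPM. Of 9 B cell genes 2 fell in each haplotype (Ighm at -1.58 and -2.11, Fcmr at -1.996 and -2.19), with sums of 8600 to 13340 and 2411 to 6188 CPM, and of 5768 to 15950 and 1124 to 6087 CPM. Ighm alone carried most of that sum (mean 10070 of 10800 CPM in resting and 3371 of 4070 CPM in activated B6 cells), and the median log2 fold change of the 9 genes was -0.10 and -0.40. Of 4 plasma cell genes 2 fell in each haplotype (Jchain and Sdc1) and 1 rose in B6 cells (Prdm1, 0.83), and Cd8a and Cd8b1 rose in each. Among all genes tested, 22.4% rose and 24.5% fell in B6 cells, and 25.2% and 28.4% in NZB cells. The counts of the 9 T cell genes in both directions, and of the B cell genes that fell, lie near these shares. None of these markers was at 0 in all 6 libraries of any group. The part of these cells in the fall of H1f2 and the other members was not tested.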

How the data were processed

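Per the labels and the study's methods, poly(A) RNA was made into bulk MARS-seq libraries. Reads were trimmed with cutadapt, mapped with STAR to 3′ regions of 1000 bases on GRCm39 and counted with HTSeq. Versions and the strand setting are not given in the sources used here. The authors deposited a count table corrected for UMI duplicates and a second table of larger counts, read here as counts before that correction, 1 column of which belongs to no sample here and was left out. The deposited counts were fitted with edgeR 4.0.16 (R 4.3.3, limma 3.58.1): filterByExpr, TMM scaling, quasi-likelihood test over 4 group means in all 24 libraries, Benjamini-Hochberg adjustment over 10566 genes, and a call at an adjusted p of at most 0.05 without a fold limit. The study used DESeq2, which served as an alternative (1.42.0). CPM is the TMM-scaled count per 1000000. Gene models, stem-loops and sequences were read from GENCODE on GRCm39.

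Members and lists were chosen with earlier results of these data known. Values per group are given for members that passed the filter and had a group mean of 5 CPM or more, for H2ac10, and, in each list, for genes with the 3 largest called changes in mtDNA B6 cells plus Slbp, Npat, Nasp, H2az1, H3f3a, H3f3b, H2ax, H1f0 and Mki67, or for some of these by fold change or name only. Lists covered replacement variants, 3′ processing, chaperones, S phase, T cell identity and activation, CD8, B, plasma, granulocyte precursor, myeloid and erythroid cells. No 2 libraries of a group agreed within sampling noise (lowest chi-square per degree of freedom 3.08). Alternatives were other size factors, no filter, DESeq2, the second table, only the 12 libraries compared, each library or 3 mtDNA NZB libraries left out, replicate blocks, sets of libraries by reads per UMI as a term, a fold limit and, chosen after the data were seen, near copies summed. The test was checked on simulated counts.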

Additional observations from a re-analysis of the deposited data

Results flagged for a closer look

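In 160 groups of 6 libraries (40 genes or sums), 18 held a library that lay apart from the other 5 by Dixon's criterion. Its rate of about 1 group in 20 by chance holds for independent, normally distributed values. These CPM values include sparse counts and the groups share libraries, so the 18 cannot be set against that rate. Resting mtDNA NZB replicate 2, the library of 51409 UMIs, gave 5 of them. It held 83.6 CPM of H1f5 (3.65 to 12.4 CPM in the others), 83.6 CPM of H4c3 (15.1 to 37.1), 66.9 CPM of H2ac7 (2.00 to 3.59), 167 CPM of H4c4 (10.6 to 24.3) and 50.2 CPM of H1f1 (5.47 to 18.7), where 1 UMI is worth 16.7 CPM. Activated mtDNA NZB replicate 1 held 20.03 CPM of H2ac13 (4.38 to 9.57 in the others), 52.9 CPM of H4c4 (1.60 to 8.45) and 7.15 CPM of H2ac20 (0.875 to 2.92).

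H2ac10 stood apart in replicate 2 of both activated groups, at 89.3 CPM in mtDNA B6 (3.29 to 8.15 in the others) and 162 CPM in mtDNA NZB cells (1.90 to 7.15). H2ac24 did so at 44.9 CPM in resting mtDNA B6 replicate 1 (0 to 16.8), 95.8 CPM in activated mtDNA B6 replicate 6 (0 to 2.29) and 0.668 CPM in resting mtDNA NZB replicate 3 (0 in the others). Activated mtDNA B6 replicate 5 held 102 CPM of H2ac23 (29.6 to 52.1), and activated mtDNA B6 replicate 2 held 0 CPM of H4c17 (1.27 to 1.65). Resting mtDNA B6 replicate 4 was low in H3c7 (2.34 CPM against 4.94 to 5.98) and replicate 6 high in the H3 sum (75.9 CPM against 45.8 to 52.7). Resting mtDNA NZB replicate 5 was low in the sum of all members (377 CPM against 691 to 870).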

How the results depend on the processing

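Of 55 calls of single members on activation, 44 were kept in each alternative that tested them, 29 of these in all 34, while the other 15 were not tested in the fit of only the 12 libraries compared, where fewer members passed the filter. None of 6609 alternative values of the 200 member comparisons turned a called direction, while 45 lost and 42 gained a call. The number of members that rose in mtDNA B6 cells went from 5 to 3 in the second count table and to 3 with a replicate block by label number, and in mtDNA NZB cells from 9 to 5 and 5. The number that fell in mtDNA NZB cells went from 19 to 9 in a fit of only the 12 libraries compared, where 24 members passed the filter in place of 41. Without the 3 mtDNA NZB libraries, 2 members were lower in resting mtDNA NZB cells and 1 had a larger response there, in place of 0 and 0. For both members these libraries held the highest resting value of mtDNA NZB cells, so leaving them out moves the results this way. Without H1f2 the resting mtDNA NZB sum, all 6 libraries included, went from 717 to 491.5 CPM. Leaving out 1 library at a time gave 4 to 6 rises and 21 to 25 falls in mtDNA B6 cells and 7 to 10 and 19 to 21 in mtDNA NZB cells. The study's methods say that isolated cells were split into resting and activated ones, but not whether equal label numbers mark 1 animal. Deviations of same-numbered libraries correlated at -0.158 to 0.253 over 9 pairs, which neither shows nor excludes a pairing, so the fit without a block was kept. With label number as a replicate block, H2ac8 (0.89, edgeR adjusted p = 0.0721) and H2ac13 (-0.88, adjusted p = 0.0664) in mtDNA B6 cells and H1f5 (1.16, adjusted p = 0.109), H2bc11 (0.38, adjusted p = 0.557) and H2bc12 (0.53, adjusted p = 0.545) in mtDNA NZB cells no longer passed, nor did H3c3 in either (1.05 and 0.80, adjusted p = 0.148 and 0.380), whereas H1f1 passed in mtDNA NZB cells (-1.19, adjusted p = 0.0499). With the replicate number of the title as the block, H2ac13 (-0.83, adjusted p = 0.0544) and H2bc11 (0.97, adjusted p = 0.0884) no longer passed and H2ac4 did in mtDNA B6 cells (1.14, adjusted p = 0.0463). The cause of these changes was not tested. Depth limits the 21 members with 1 to 171 UMIs and every value of resting mtDNA NZB replicate 2.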
